A study of Mus musculus with 2 samples.

Results

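The 10 genes described here encode high mobility group (HMG) proteins and replication-independent histone variants: *Hmgb1*, *Hmgb2*, *Hmgb3*, *Hmga1*, *Hmga2*, *Hmgn2*, *H2afz*, *H2afx*, *H1f0* and *H3f3b*. They were chosen by symbol from the 28692 genes that both count matrices list, and all 10 were found. The cells came from E14.5 retinas of mice heterozygous for Tg(Lhx4::EGFP)KN199Gsat/Mmucd, a bacterial artificial chromosome (BAC) transgene in which *Lhx4* regulatory sequence drives GFP (*LHX4::GFP*). GFP-positive embryos of 2 litters were pooled and dissociated, sorted into GFP+ and GFP− cells, and each gate was made into 1 droplet library. Both gates therefore carry the transgene, the animals cannot be told apart, and the reporter marks early cones without being a lineage tracer of them. With 1 library per gate there were no replicates, so no test between gates or cell groups was made and every interval below covers counting error only.

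HMG proteins are abundant non-histone chromatin proteins. HMGB proteins bend DNA through HMG boxes, HMGA proteins bind the minor groove of AT-rich DNA through AT hooks, and HMGN proteins bind the nucleosome core. Canonical histones are made in S phase from transcripts without a poly-A tail, whereas replication-independent variants are made through the cell cycle and in postmitotic cells from polyadenylated transcripts. In the developing retina, dividing retinal progenitor cells (RPCs) give rise in overlapping order to retinal ganglion cells (RGCs), horizontal cells (HCs), cones and amacrine cells (ACs), and the chromatin of each cell is rebuilt as it leaves the cycle.

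The GFP+ library kept 3689 of 3728 cells with 15503658 UMIs (unique molecular identifiers, 1 per captured transcript molecule), a median of 3894 per cell. The GFP− library kept 3389 of 4445 cells with 30094636 UMIs, a median of 8848. *Lhx4* itself had 139 UMIs per 1000000 UMIs (CPM) in the GFP+ library and 1.66 CPM in the other. The libraries shared 20 cell barcodes, 15 of them among kept cells. Globin genes summed to 1.55 and 3.62 CPM, and 12 markers of microglia, endothelium, mesenchyme and pigment epithelium to 45.7 and 78.7 CPM, with 3 of these 12 at 0 in GFP+ cells. Single genes made up much of these sums, so they do not measure the cell types. *C1qa* gave 26.6 CPM in GFP+ cells, where *C1qb* had 0 UMIs. *Kdr* gave 35.7 CPM in GFP− cells, where *Pecam1* was at 2.23 CPM.

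Cells were grouped by the UMIs of marker genes, and no member took part. A cell was in G2/M with at least 15 UMIs of 23 G2/M markers per 10000, in S with at least 15 of 23 S markers and fewer G2/M markers, and non-cycling when both lists together were under 5. A group was called cone-like, RGC-like, AC/HC-like, multipotent RPC-like or neurogenic RPC-like from 3 or more UMIs of its own markers. Cone-like, RGC-like and AC/HC-like cells also had to be non-cycling, with fewer than 3 UMIs of each other's markers. Both RPC-like groups needed fewer than 3 UMIs of each of those 3 lists. Multipotent cells also had fewer than 3 neurogenic UMIs and were in S or G2/M. Cells between the phase limits (1083 GFP+ and 614 GFP−) were neither cycling nor non-cycling. Genes that follow the phase markers thus differ between these groups in part by selection, and that part was not tested. In the GFP− library 62.1% of cells were cycling (2103) and 672 were non-cycling, against 47 cycling cells (1.27%) and 2559 non-cycling cells in the GFP+ library. The GFP− groups were 763 multipotent S cells, 727 multipotent G2/M cells, 466 cycling and 49 non-cycling neurogenic cells, 293 RGC-like, 229 AC/HC-like and 45 cone-like cells. With no upper limit on genes the RGC-like group would hold 715 cells, so all RGC-like values below are of its cells with fewer genes. The GFP+ library gave 2519 cone-like cells, and 1137 GFP+ and 817 GFP− cells met no definition.

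Between the gates, most of these genes were lower in GFP+ cells and *H3f3b* was the most elevated of them. The members took 1.26% of all UMIs in GFP− cells and 0.981% in GFP+ cells. Of the 9 members at 50 CPM or more in either library, 5 were at least 2-fold lower in GFP+ cells and 0 were at least 2-fold higher. Over all 3829 genes compared, 9.09% were that much lower and 19.1% that much higher, and the median log2 ratio was 0.23 against -1.21 for the members. *Hmgb2* stood at 292 CPM in the GFP+ and 1490 CPM in the GFP− library, a ratio of 0.196 (0.190 to 0.202). *H2afx* stood at 68.7 and 343 CPM, a ratio of 0.200 (0.188 to 0.213), and *H2afz* at 881 and 3174 CPM, a ratio of 0.278 (0.273 to 0.283). These 3 were the lowest of the 9. *Hmga1* followed at 113 and 285 CPM (ratio 0.396), then *Hmgb3* at 296 and 629 CPM (ratio 0.470) and *Hmgb1* at 906 and 1637 CPM (ratio 0.554). *Hmgn2* was nearly level, at 1070 and 1208 CPM (ratio 0.886, 0.870 to 0.902). *Hmga2*, under 50 CPM in both libraries, had 28 UMIs in GFP+ and 1333 in GFP− cells, a ratio of 0.0408 (0.0270 to 0.0592).

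*H1f0* stood at 885 CPM in the GFP+ and 718 CPM in the GFP− library, a ratio of 1.23 (1.21 to 1.26), and *H3f3b* at 5299 and 3113 CPM, a ratio of 1.70 (1.69 to 1.72). Both were higher by CPM but lower in UMIs per cell, where the ratios were 0.583 and 0.806. The median depth was 3894 UMIs in GFP+ and 8848 UMIs in GFP− cells. Within the GFP− library it was 5104 UMIs in cone-like, 9203 in multipotent S and 10044 in multipotent G2/M cells. The parts of library and cell type in the depth were not tested. Relative to the median gene, *H3f3b* was 0.53 and *H1f0* 0.07 higher on the log2 scale. The gates differ in cell cycle makeup as given above, and the share of a gate ratio that comes from it was not tested, so the groups within a gate are described next.

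**Figure D1:**
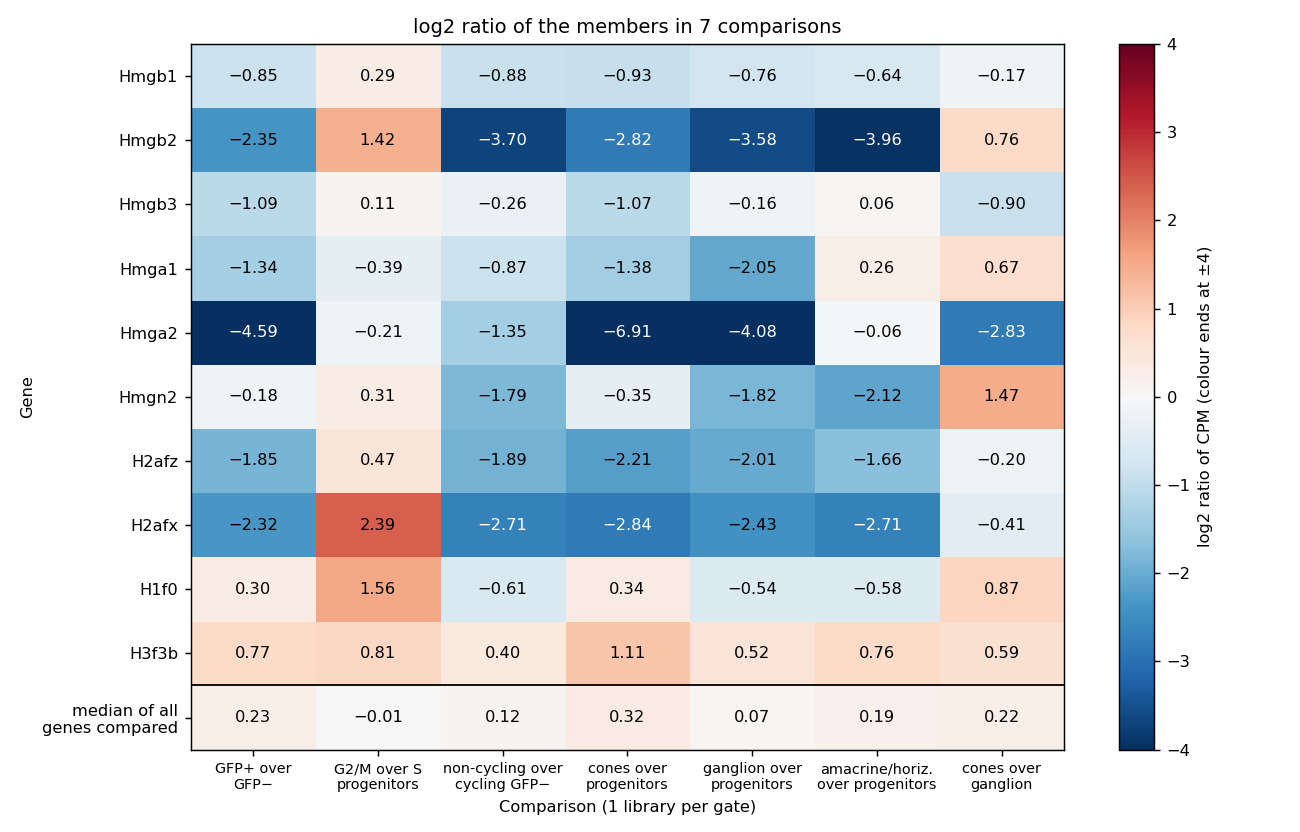
log2 ratio of CPM for each member (rows) in 7 comparisons (columns), with the median of all genes compared in the last row; blue is lower and red higher in the group named first. *Hmgb2*, *H2afz* and *H2afx* were at -1.66 or lower in all 3 postmitotic comparisons with progenitors, whereas *H3f3b* was above the median gene in all 7 comparisons; per cell and not by CPM, *H3f3b* and *H1f0* were lower in the 3 columns that hold GFP+ cells.

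*Hmgb1*, *Hmgb2* and *Hmgb3* encode the HMG box proteins. *Hmgb1* (chr5:149046702-149184489, GRCm38, minus strand) stood at 1527 CPM (1498 to 1556) in multipotent S, 1861 CPM (1829 to 1892) in multipotent G2/M and 2615 CPM (2566 to 2665) in cycling neurogenic cells. Among non-cycling cells it was at 1243 CPM in neurogenic, 1005 CPM in RGC-like, 1092 CPM in AC/HC-like, 757 CPM in GFP− cone-like and 891 CPM in GFP+ cone-like cells. All non-cycling groups thus lay below all cycling groups, with intervals that did not overlap. The order among the non-cycling groups was closer, since the intervals of the neurogenic (1130 to 1364) and AC/HC-like cells (1041 to 1144) overlapped, and those of the AC/HC-like and RGC-like cells only just did not.

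*Hmgb2* (chr8:57511907-57515999, plus strand) changed most among the HMG box genes. It was at 1018 CPM (994 to 1042) in multipotent S, 2730 CPM (2692 to 2769) in multipotent G2/M and 3006 CPM (2953 to 3059) in cycling neurogenic cells. It fell to 246 CPM (197 to 303) in non-cycling neurogenic cells, a ratio of 0.0818 (0.0655 to 0.101) to the cycling ones, and stood at 157 CPM in RGC-like, 121 CPM in AC/HC-like, 308 CPM in GFP− cone-like and 267 CPM (257 to 277) in GFP+ cone-like cells. Cone-like cells thus kept a higher *Hmgb2* CPM than the other neurons, 2.20 times (1.90 to 2.56) the AC/HC-like level from the GFP+ library and 2.55 times (1.93 to 3.33) from the GFP− library. Against RGC-like cells the GFP+ cone-like ratio was 1.70 (1.54 to 1.87) by CPM but 0.671 per cell. Per cell, RGC-like, GFP+ cone-like and AC/HC-like cells held 0.0924, 0.0620 and 0.0466 times the *Hmgb2* UMIs of cycling multipotent cells. As a gauge of free RNA, the progenitor genes *Sfrp2*, *Fgf15* and *Ccnd1* stood in RGC-like cells at 3.53%, 1.83% and 2.21% of their progenitor level *Dapl1* at 7.77% and the sparse *Gpx3* at 40.4%, while *Hmgb2* stood at 8.33%. In AC/HC-like cells *Hmgb2* stood at 6.42% of its progenitor level, beside *Fgf15* at 6.17% and *Dapl1* at 9.53%. How much of the low *Hmgb2* level there is free RNA was not tested.

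*Hmgb3* (chrX:71555918-71560676, plus strand) differed from both. It was at 581 CPM in multipotent S, 625 CPM in multipotent G2/M, 816 CPM in cycling and 595 CPM in non-cycling neurogenic cells, 539 CPM (513 to 565) in RGC-like and 629 CPM (591 to 670) in AC/HC-like cells. Its level in RGC-like and AC/HC-like cells was therefore 0.893 (0.847 to 0.941) and 1.04 (0.976 to 1.11) times that of cycling multipotent cells. Cone-like cells were the exception, with 316 CPM (250 to 394) in the GFP− and 288 CPM (278 to 298) in the GFP+ library, 0.524 and 0.477 times the progenitor level.

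*Hmga1* (chr17:27556497-27563674, plus strand) and *Hmga2* (chr10:120361275-120476469, minus strand) encode the AT hook proteins, known as genes of embryonic and dividing cells. *Hmga1* was at 314 CPM in multipotent S and 239 CPM in multipotent G2/M cells, the reverse of the HMG box genes, and at 500 CPM (478 to 522) in cycling neurogenic cells. Unlike *Hmgb2* it was nearly as high in non-cycling neurogenic cells, at 441 CPM (375 to 516). The postmitotic groups then diverged. RGC-like cells had 66.8 CPM (58.0 to 76.5), cone-like cells 104 CPM (68.0 to 153) in the GFP− and 106 CPM (100 to 113) in the GFP+ library, and AC/HC-like cells 331 CPM (303 to 361). The AC/HC-like level was 1.20 times (1.09 to 1.31) that of cycling multipotent cells by CPM but 0.871 times per cell. By CPM this log2 ratio lay 0.07 above the median gene.

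*Hmga2* showed the sharpest contrast between postmitotic groups. It was at 67.4 CPM (61.5 to 73.8) in multipotent S, 58.4 CPM (53.0 to 64.3) in multipotent G2/M and 27.0 CPM (22.2 to 32.5) in cycling neurogenic cells. Non-cycling neurogenic cells had 2 UMIs, RGC-like cells 11 UMIs (3.55 CPM, 1.77 to 6.35), GFP+ cone-like cells 5 UMIs (0.475 CPM, 0.154 to 1.11) and GFP− cone-like cells 0 UMIs, which allows up to 12.0 CPM at 3 counts. AC/HC-like cells in contrast had 95 UMIs (59.9 CPM, 48.5 to 73.2), 0.953 times (0.763 to 1.18) the level of cycling multipotent cells. In shares of cells, 24.9% of AC/HC-like cells held a *Hmga2* UMI (median depth 6721 UMIs), against 3.41% of RGC-like cells (11165 UMIs) and 0.198% of GFP+ cone-like cells (3968 UMIs). At 3200 UMIs per cell the shares were 16.7% (12.1 to 22.2), 1.03% (0.212 to 2.97) and 0.142% (0.0292 to 0.413). AC/HC-like cells also held more of the multipotent RPC markers than the other neurons, 336 CPM against 59.7 CPM in RGC-like and 8.27 CPM in GFP+ cone-like cells. *Hmga2* was at 69.3 CPM in the 150 AC/HC-like cells without a multipotent marker UMI, and at 4.79 CPM, a single UMI, in the 30 with 3 or more. *Hmga1* stood at 323 and 288 CPM in the same 2 sets, a ratio whose interval held 1, and *Hmgn2* at 244 and 776 CPM. The split was chosen after these levels were seen, and the part of progenitor RNA in the *Hmga2* level was not tested.

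*Hmgn2* (chr4:133964738-133968650, minus strand) encodes a nucleosome-binding HMGN protein. It was at 1226 CPM in multipotent S, 1518 CPM in multipotent G2/M, 2055 CPM (2011 to 2099) in cycling neurogenic and 855 CPM (762 to 956) in non-cycling neurogenic cells. It set cone-like cells apart from the other neurons, with 889 CPM (776 to 1014) in the GFP− and 1078 CPM (1058 to 1098) in the GFP+ library, against 389 CPM (367 to 411) in RGC-like and 317 CPM (290 to 346) in AC/HC-like cells. GFP+ cone-like cells were 2.77 times (2.61 to 2.94) the RGC-like and 3.40 times (3.11 to 3.73) the AC/HC-like level. Within the GFP− library, where no gate separates the groups, the ratios were 2.29 (1.97 to 2.64) and 2.81 (2.39 to 3.29). Among cells under 3500 genes, *Hmgn2* was the only member at least 2-fold higher in GFP+ cone-like than in RGC-like cells, and 0 of the 9 members compared were at least 2-fold lower, where 20.3% and 9.41% of 3848 genes were. With no upper limit on genes the RGC-like group grew from 293 to 715 cells and 3 members were at least 2-fold higher, *Hmga1* (log2 ratio 1.08), *H1f0* (1.29) and *Hmgn2* (1.69). The median gene stood at 0.24 there, and the share of all genes called at that setting is not given. Per cell the *Hmgn2* ratio was 1.09, since RGC-like cells held more UMIs.

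**Figure D2:**
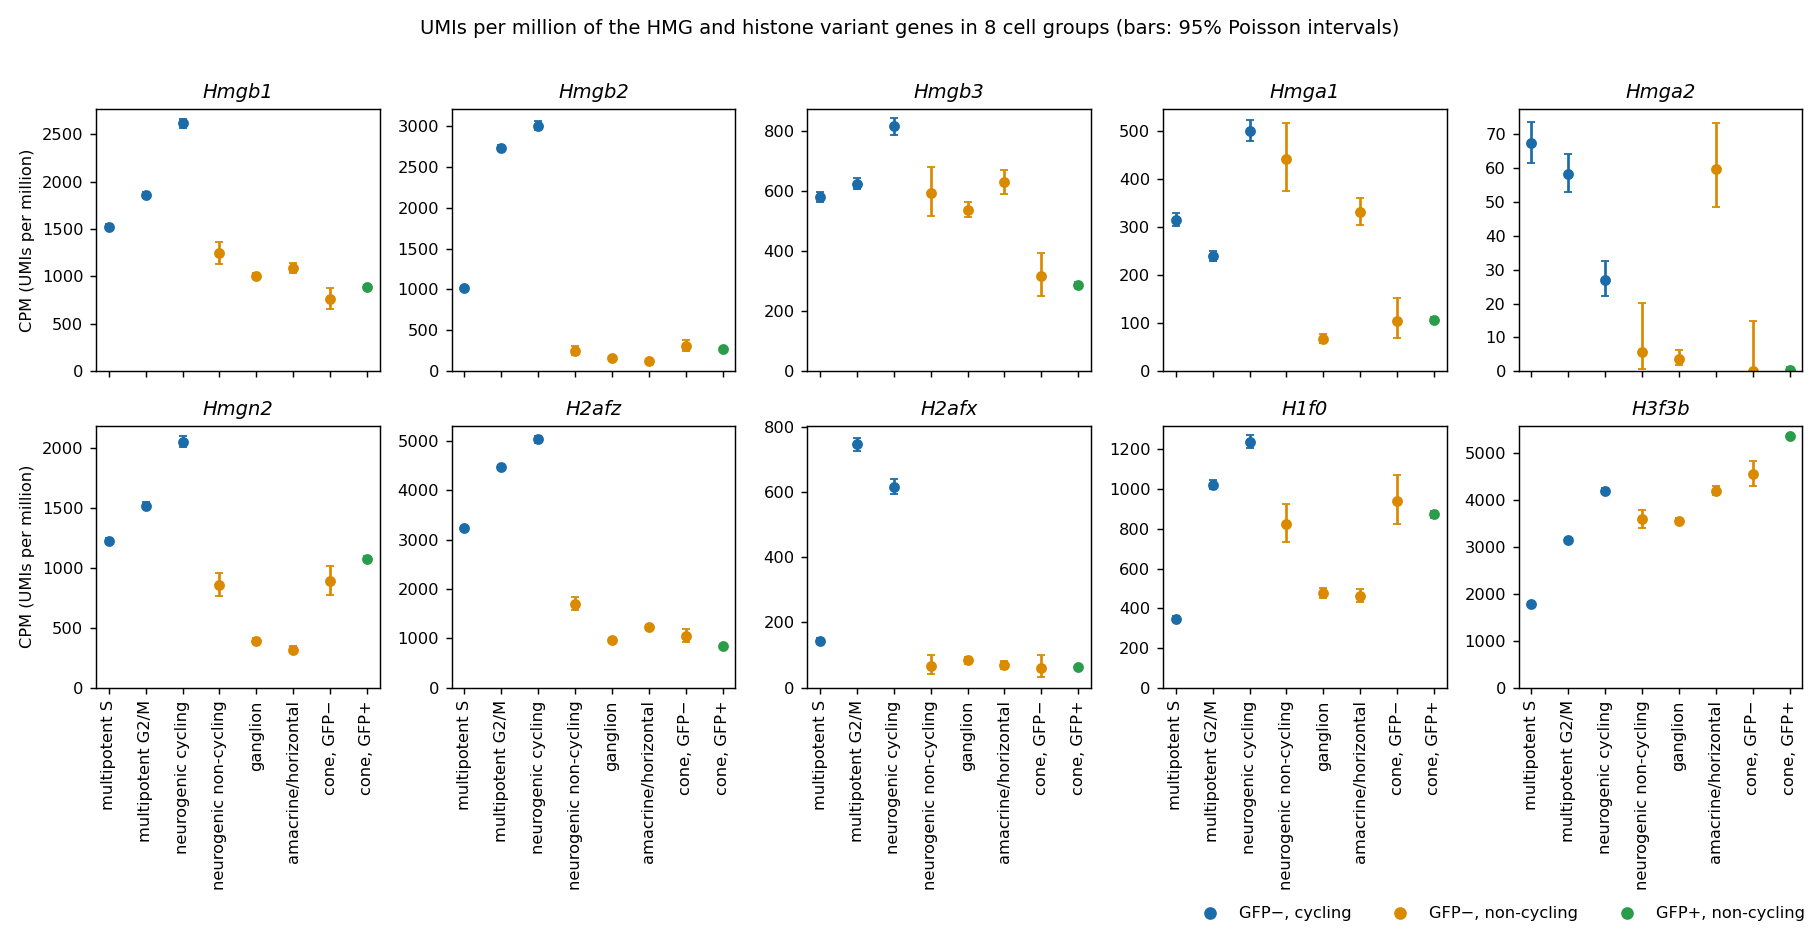
CPM of each member (vertical axes, linear, from 0) in 8 cell groups (horizontal axis); blue points are cycling and orange points non-cycling GFP− groups, green points are GFP+ cone-like cells, and bars are 95% exact Poisson intervals. *Hmga2* was at 59.9 CPM in AC/HC-like cells at 3.55 CPM in RGC-like and 0.475 CPM in GFP+ cone-like cells, and *H3f3b* was highest in GFP+ cone-like cells at 5369 CPM.

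*H2afz* (chr3:137864487-137866922, plus strand) encodes H2A.Z, a variant placed at promoters and enhancers, and was at 3225 CPM (3183 to 3267) in multipotent S, 4465 CPM (4416 to 4514) in multipotent G2/M and 5027 CPM (4959 to 5096) in cycling neurogenic cells. It was lower in every non-cycling group, at 1696 CPM in neurogenic, 956 CPM in RGC-like, 1222 CPM in AC/HC-like, 1053 CPM in GFP− cone-like and 835 CPM (818 to 853) in GFP+ cone-like cells. RGC-like, AC/HC-like and GFP+ cone-like cells stood at 0.248, 0.317 and 0.217 times the cycling multipotent level. *H2afx* (chr9:44334694-44336077, plus strand) encodes H2A.X, whose phosphorylated form marks DNA breaks. It makes both a polyadenylated and a tailless transcript, and poly-A capture counts only the first. It was at 142 CPM (133 to 151) in multipotent S, 747 CPM (727 to 767) in multipotent G2/M and 616 CPM (593 to 641) in cycling neurogenic cells. The non-cycling groups all lay between 60.1 and 83.2 CPM, and their intervals overlapped apart from those of GFP+ cone-like (58.0 to 67.6) and RGC-like cells (73.4 to 94.0).

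*H1f0* (chr15:79028450-79030504, plus strand) encodes the linker histone H1.0, known to build up in cells that stop dividing. Its lowest level was in multipotent S cells, at 348 CPM (334 to 362), and it was at 1024 CPM (1000 to 1047) in multipotent G2/M and 1239 CPM (1206 to 1274) in cycling neurogenic cells. RGC-like and AC/HC-like cells had 476 CPM (453 to 501) and 463 CPM (430 to 498), whereas cone-like cells had 941 CPM (824 to 1069) in the GFP− and 874 CPM (856 to 892) in the GFP+ library, close to non-cycling neurogenic cells at 827 CPM (735 to 927). Cone-like cells thus stood at 1.83 times (1.74 to 1.94) the RGC-like level from the GFP+ library and at 1.97 times (1.71 to 2.27) from the GFP− library. Per cell the GFP+ ratio was 0.724. These ratios are to RGC-like cells under 3500 genes, and with no upper limit the GFP+ ratio by CPM was wider, as given with *Hmgn2*. Against cycling multipotent cells the GFP+ cone-like ratio was 1.26 by CPM but 0.554 per cell, and its log2 ratio was -0.04 after TMM scaling. By CPM it lay 0.02 above the median gene on the log2 scale.

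*H3f3b* (chr11:116021912-116027962, minus strand) is one of a pair of genes for the replacement histone H3.3. It was at 1794 CPM (1763 to 1826) in multipotent S, 3156 CPM (3116 to 3198) in multipotent G2/M, 4193 CPM (4131 to 4256) in cycling and 3595 CPM (3401 to 3797) in non-cycling neurogenic cells. RGC-like cells had 3555 CPM (3489 to 3622), AC/HC-like cells 4204 CPM (4104 to 4306), GFP− cone-like cells 4564 CPM (4303 to 4837) and GFP+ cone-like cells 5369 CPM (5325 to 5414). *H3f3b* was the only member higher by CPM in every non-cycling group than in either multipotent group. The ratio of GFP+ cone-like to cycling multipotent cells was 2.16 (2.13 to 2.19), which was 0.79 above the median gene on the log2 scale, but 0.947 per cell. RGC-like and AC/HC-like cells stood at 1.43 and 1.69 times the multipotent level by CPM, and at 1.59 and 1.23 times per cell. The other gene of the pair, *H3f3a*, had another order. It was at 1869 CPM in multipotent, 2865 CPM in RGC-like, 3570 CPM in AC/HC-like, 2586 CPM in GFP− cone-like and 2053 CPM in GFP+ cone-like cells.

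Set out by comparison, the cycling multipotent cells were the reference for all 3 postmitotic groups, so the following counts share their controls and are given side by side. Of 10 members, 6 were at least 2-fold lower in GFP+ cone-like cells (*Hmgb2*, *Hmgb3*, *Hmga1*, *Hmga2*, *H2afz* and *H2afx*) and 1 was at least 2-fold higher (*H3f3b*), where 11.8% and 25.7% of 3920 genes were. In RGC-like cells under 3500 genes 6 were lower (*Hmgb2*, *Hmga1*, *Hmga2*, *Hmgn2*, *H2afz* and *H2afx*) and 0 higher, where 13.2% and 17.9% of 3364 genes were. In AC/HC-like cells 4 were lower (*Hmgb2*, *Hmgn2*, *H2afz* and *H2afx*) and 0 higher, where 11.4% and 18.3% of 3489 genes were. *Hmga2* reached 50 CPM in multipotent but not in GFP+ cone-like or RGC-like cells, so in those 2 comparisons it could only be called lower. The median log2 ratios of the members were -1.22, -1.92 and -0.61, and those of all genes 0.32, 0.07 and 0.19. The 672 non-cycling cells kept from the GFP− library were also compared with its 2103 cycling cells, whatever their class. Of the members, 5 were at least 2-fold lower in the non-cycling cells (*Hmgb2*, *Hmga2*, *Hmgn2*, *H2afz* and *H2afx*) and 0 higher, where 10.9% and 15.2% of 3363 genes were. The widest of these was *Hmgb2*, at 165 CPM in non-cycling and 2144 CPM in cycling cells, a ratio of 0.0769 (0.0720 to 0.0821). *Hmga2*, at 21.4 CPM in non-cycling and 54.8 CPM in cycling cells, could again only be called lower. Both groups come from the GFP− library, from which the sort had removed most cone-like cells. With no upper limit on genes they grew to 1132 and 2616 cells and more members were lower, as given with the other settings.

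Within cycling multipotent cells, 3 of the 10 members were at least 2-fold higher in G2/M than in S (*H2afx*, *H1f0* and *Hmgb2*) and 0 were lower, where 3.44% and 0.625% of 2880 genes were. *H2afx* had a ratio of 5.26 (4.92 to 5.63), *H1f0* of 2.94 (2.81 to 3.08) and *Hmgb2* of 2.68 (2.61 to 2.76). *H3f3b* followed at 1.76 (1.72 to 1.80) and *H2afz* at 1.38 (1.36 to 1.41), whereas *Hmga1* was lower in G2/M at 0.761 (0.714 to 0.810). The median gene stood at 0.991. Cycling neurogenic cells gave the same order for the first 3, with G2/M over S ratios of 6.23 for *H2afx*, 3.44 for *H1f0* and 3.12 for *Hmgb2*, but there *Hmga1* was higher in G2/M at 1.53 (1.37 to 1.70) and *Hmga2* lower at 0.375 (0.254 to 0.553).

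Cells that met the multipotent marker limits in any phase were also binned by their G2/M marker rate (under 5, 5 to 15, 15 to 40, and 40 or more per 10000, with 588, 328, 442 and 285 cells). The bins under 15 thus hold S cells and cells in neither S nor G2/M. Across the bins the genes rose in different ways. *H2afx* rose in every step, from 99.5 to 208, 517 and 1086 CPM, and *Hmgb2* likewise from 703 to 1420, 2322 and 3331 CPM. *H1f0* was flat at first, at 373 and 363 CPM, and then rose to 922 and 1173 CPM. *H3f3b* did the same, at 1820, 1911, 3184 and 3116 CPM. *H2afz* went from 2766 to 3733, 4426 and 4523 CPM and so levelled off, and *Hmga1* was at 306 CPM in the lowest and 194 CPM in the highest bin. Over 1638 single cells of these bins thinned to 3200 UMIs, the rank correlation with the G2/M marker rate was 0.72 for *Hmgb2*, 0.59 for *H2afx*, 0.49 for *H2afz*, 0.42 for *H3f3b*, 0.38 for *H1f0* and between -0.10 and 0.26 for the other members, all cells being from 1 library.

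**Figure D3:**
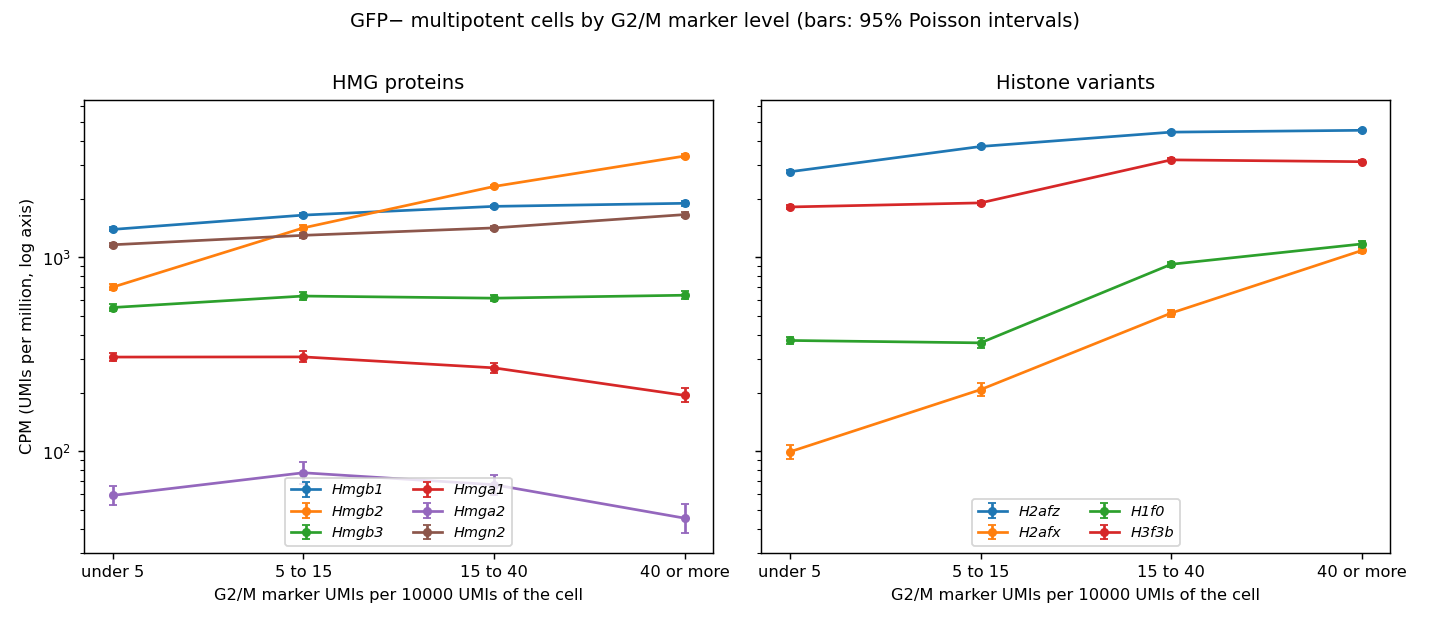
CPM (vertical log axis) of the 6 HMG genes (left) and the 4 histone variant genes (right) in GFP− multipotent cells of any phase, binned by G2/M marker UMIs per 10000 UMIs of the cell (horizontal axis); bars are 95% exact Poisson intervals. *H2afx* rose from 99.5 to 1086 CPM across the bins, and *H1f0* stayed at 373 and 363 CPM in the first 2 bins before it rose to 1173 CPM.

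Genes whose transcripts peak in G2/M often carry a cell cycle homology region (CHR) and CCAAT boxes just before their start. The 250 bases before the RefSeq start (GRCm38.p6) were found for 9 of the 10 members. The sequences of *Hmgb2* and *H1f0*, both higher in G2/M, are shown beside those of *Hmgb3* and *H2afz*, which differed less between phases. They run 5′ to 3′ on the strand of the gene, and capitals mark CHR (TTTGAA or TTCGAA) and CCAAT on either strand.
Hmgb2, chr8:57511593-57511842, plus strand: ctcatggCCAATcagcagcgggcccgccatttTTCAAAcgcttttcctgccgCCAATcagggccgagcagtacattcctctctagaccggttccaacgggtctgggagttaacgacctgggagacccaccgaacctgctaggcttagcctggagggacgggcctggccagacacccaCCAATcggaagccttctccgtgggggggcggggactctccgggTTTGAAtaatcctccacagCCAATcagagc
H1f0, chr15:79027962-79028211, plus strand: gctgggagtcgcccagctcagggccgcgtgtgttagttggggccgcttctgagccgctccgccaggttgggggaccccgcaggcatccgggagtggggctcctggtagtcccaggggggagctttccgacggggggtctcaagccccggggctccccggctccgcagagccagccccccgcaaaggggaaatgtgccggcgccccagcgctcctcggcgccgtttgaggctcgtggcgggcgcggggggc
Hmgb3, chrX:71555667-71555916, plus strand: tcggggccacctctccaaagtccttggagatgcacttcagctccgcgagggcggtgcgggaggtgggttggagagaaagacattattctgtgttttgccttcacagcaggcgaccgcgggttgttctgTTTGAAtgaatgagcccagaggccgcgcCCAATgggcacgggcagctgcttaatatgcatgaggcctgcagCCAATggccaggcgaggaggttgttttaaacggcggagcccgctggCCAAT
H2afz, chr3:137864237-137864486, plus strand: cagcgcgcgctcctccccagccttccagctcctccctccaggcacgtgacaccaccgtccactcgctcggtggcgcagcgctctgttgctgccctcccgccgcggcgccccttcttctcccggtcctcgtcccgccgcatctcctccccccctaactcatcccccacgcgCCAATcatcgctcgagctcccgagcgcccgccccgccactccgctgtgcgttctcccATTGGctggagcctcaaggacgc

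The *Hmgb2* sequence held 4 CCAAT and 2 CHR matches, the nearer CHR starting 30 bases and the nearest CCAAT 11 bases before the start. *Hmgb3* held 3 CCAAT matches and 1 CHR match, and *H2afz* 2 CCAAT matches, 1 of them on the other strand. *H1f0* held neither motif in this window. For *H1f0* and *Hmgb2* the RefSeq start lies before the GENCODE gene start given above, and the bases between were not searched. *Hmga2* held neither. The windows of *Hmgb1*, *Hmga1*, *Hmgn2* and *H3f3b* lie in whole or part inside the annotated genes, and their matches are not given. Of all 32851 promoters of that length, 17.1% held a CHR match, 33.8% a CCAAT match, 2.79% at least 3 CCAAT matches and 6.02% both motifs. A match is a description of the letters and not a bound site.

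Among single cells at equal depth, the members differed in how evenly they were spread. At 3200 UMIs per cell, *Hmgb2* had a median of 8 UMIs (quartiles 6 and 11) in multipotent G2/M, 3 (1 and 5) in multipotent S, 0 in RGC-like and AC/HC-like and 1 in GFP+ cone-like cells. *H2afz* had medians of 14 (11 and 17) in multipotent G2/M, 10 (7 and 13) in S, 3 in RGC-like, 4 in AC/HC-like and 2 in GFP+ cone-like cells. For *H3f3b* the order was turned round, with medians of 5 (4 and 8) in S, 10 (7 and 13) in G2/M, 11 (9 and 14) in RGC-like, 13 in AC/HC-like and 17 (13 and 21) in GFP+ cone-like cells. Where a Poisson spread would give a variance equal to the mean, cycling neurogenic cells, which mix both phases, were the most uneven for *H3f3b* (variance 4.20 times the mean) and *H1f0* (3.39 times). Within 1 phase *H1f0* stood out, at 2.83 times in multipotent G2/M cells against 1.31 to 1.97 times for *Hmgb1*, *Hmgb2*, *H2afz* and *H3f3b*. In GFP+ cone-like cells *H1f0* was at 1.99 times, *H3f3b* at 1.79 times and *Hmgb1* at 1.16 times.

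**Figure D4:**
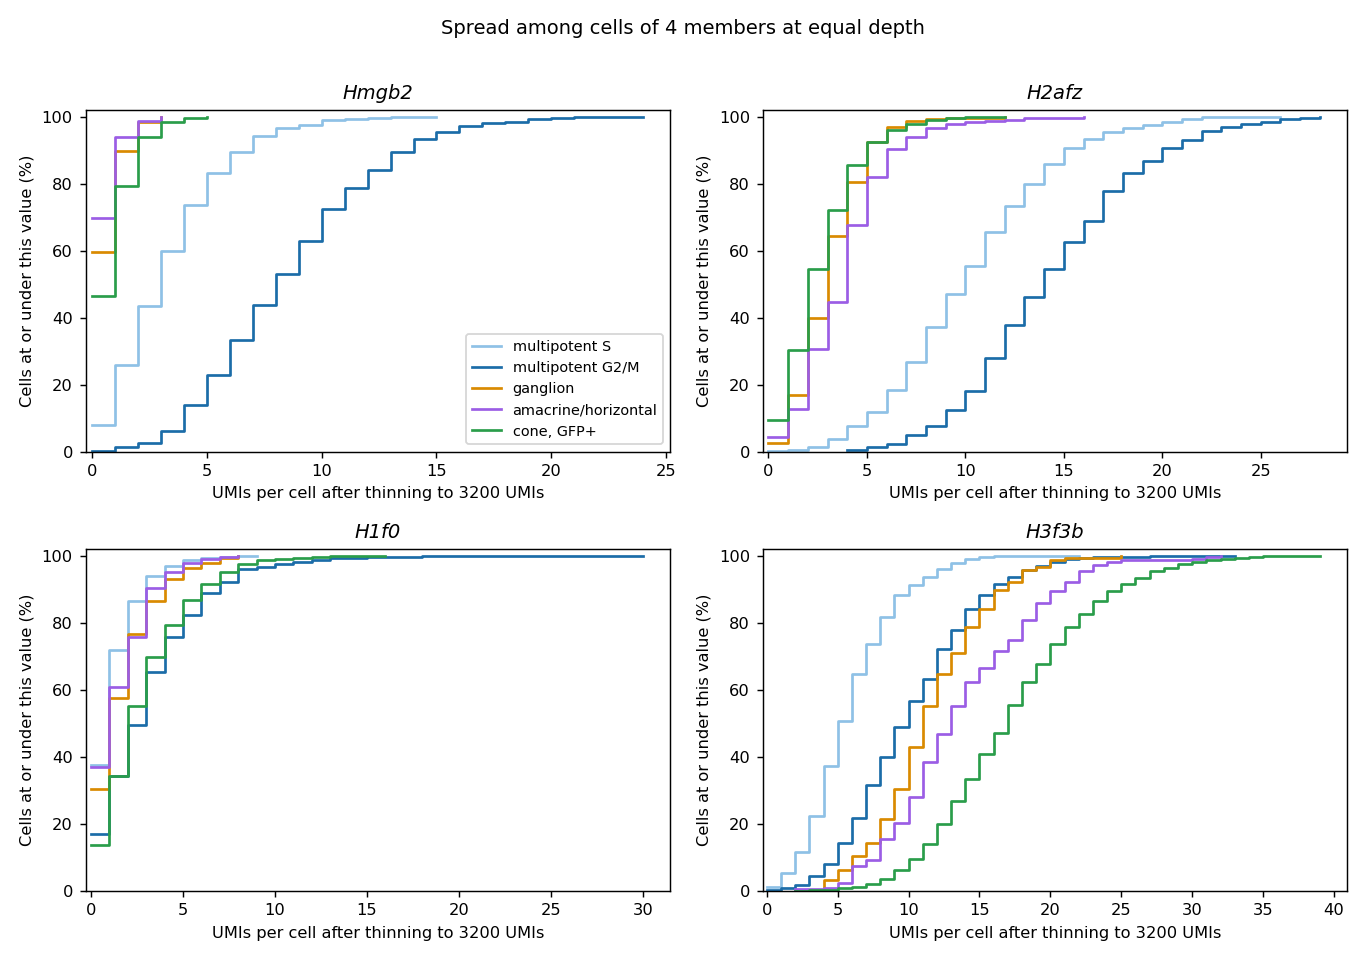
Share of cells (vertical axes, cumulative %) at or under each number of UMIs per cell (horizontal axes) for *Hmgb2*, *H2afz*, *H1f0* and *H3f3b* after thinning to 3200 UMIs; each line is 1 cell group. The postmitotic lines lie to the left of both multipotent lines for *Hmgb2* and *H2afz*, and to the right of the multipotent S line for *H3f3b*, with medians of 17 UMIs in GFP+ cone-like and 5 UMIs in multipotent S cells.

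Several members have a close relative, and the balance within such a pair shifted between groups. These shares follow UMIs, which count 3′ ends once per molecule and are not scaled by length, so a change in share between groups can be read but not which gene of a pair is more transcribed. *H3f3b* gave 48.4% (47.8 to 49.0) of the *H3f3a* and *H3f3b* UMIs in multipotent S, 63.3% in multipotent G2/M, 55.4% in RGC-like, 54.1% in AC/HC-like, 63.8% (61.6 to 66.1) in GFP− cone-like and 72.3% (72.0 to 72.7) in GFP+ cone-like cells. *H2afz* gave 74.8% of the *H2afz* and *H2afv* UMIs in multipotent S cells, 68.3% in RGC-like, 64.5% in AC/HC-like, 59.0% in GFP− cone-like and 47.1% (46.4 to 47.8) in GFP+ cone-like cells. GFP+ cone-like cells were thus at one end of both pairs, whereas the GFP− cone-like share of *H3f3b* overlapped those of multipotent G2/M (62.8 to 63.8) and cycling neurogenic cells (62.6 to 63.7). *Hmgb2* gave 59.5% of the *Hmgb2* and *Hmgb1* UMIs in multipotent G2/M, 53.5% in cycling neurogenic cells and 9.98% to 29.0% in the non-cycling groups. *Hmgn2* gave 46.5% of the *Hmgn2* and *Hmgn1* UMIs in multipotent S and 47.0% in GFP+ cone-like cells, but 26.9% in RGC-like and 24.5% in AC/HC-like cells.

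**Figure D5:**
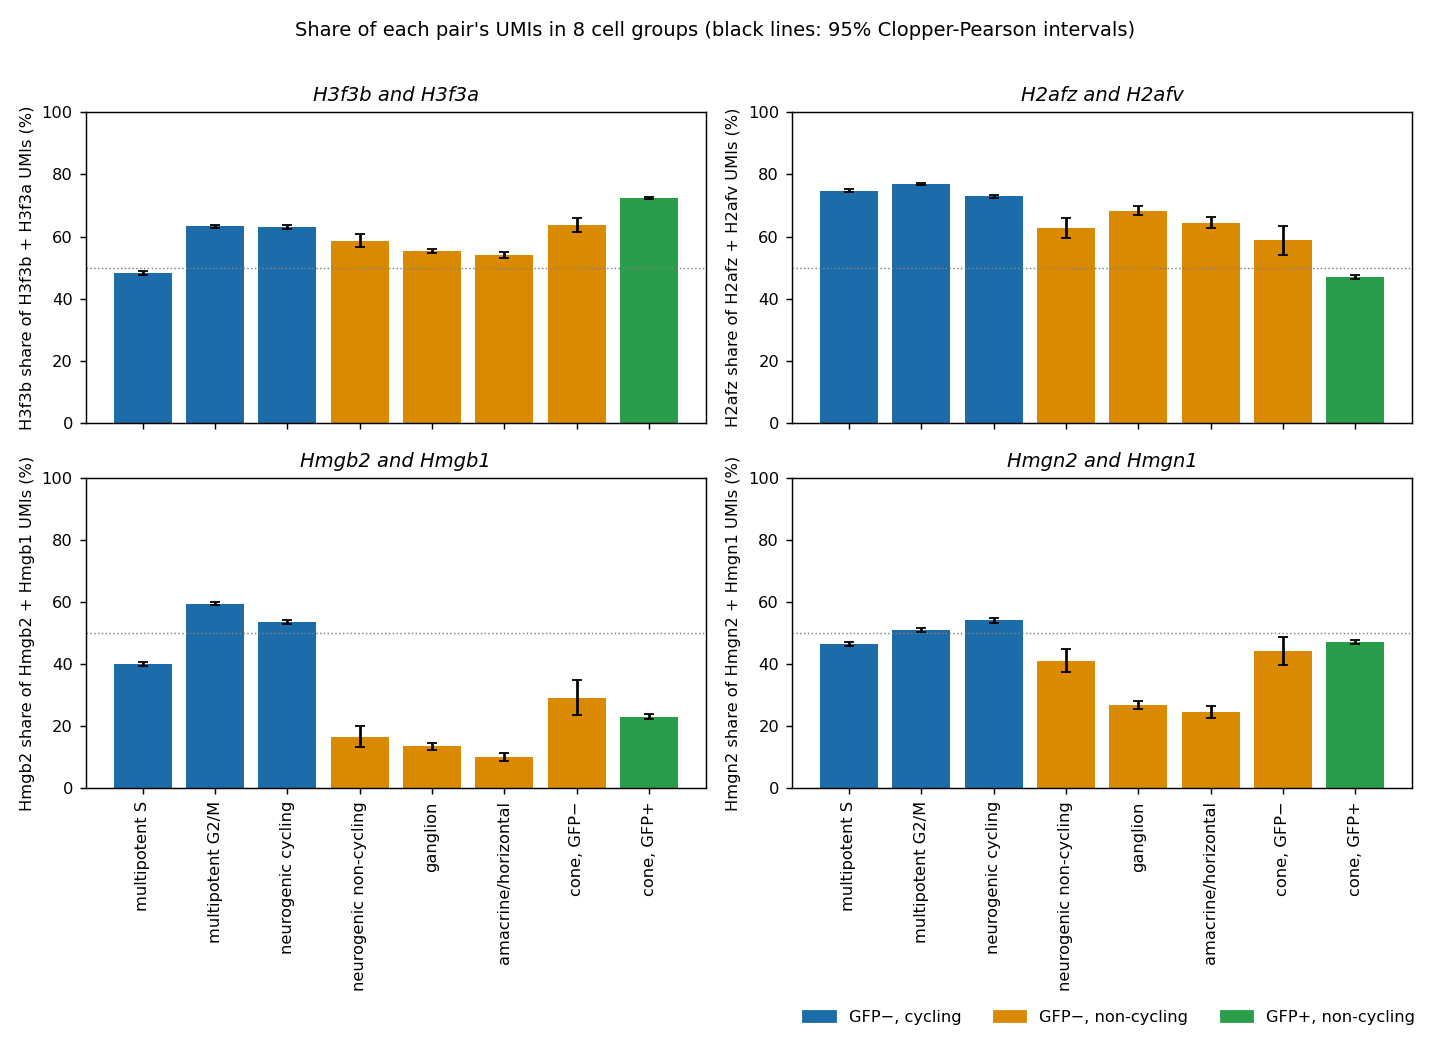
Share (%) of a pair's UMIs that came from the gene named first, in 8 cell groups; blue columns are cycling and orange columns non-cycling GFP− groups, the green column is GFP+ cone-like cells, black lines are 95% Clopper-Pearson intervals and the dotted line marks 50%. *H3f3b* reached 72.3% and *H2afz* fell to 47.1% in GFP+ cone-like cells, the highest and lowest of the 8 groups.

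Groups with the same definition were also compared between the gates. GFP− cone-like cells had 1585 CPM of the cone markers, 256 CPM of the neurogenic and 84.1 CPM of the multipotent markers, against 4329, 73.6 and 8.27 CPM in GFP+ cone-like cells, so the groups were not alike in makeup. For the 9 members detected in both, GFP− cone-like cells stood at 0.825 (*Hmgn2*, 0.719 to 0.942) to 1.26 (*H2afz*, 1.11 to 1.425) times the GFP+ cone-like level. With 45 GFP− cone-like cells some intervals were wide, as for *H2afx* (0.533 to 1.59). The 19 GFP+ cells in G2/M stood at 0.702 (*H2afz*, 0.642 to 0.766) to 1.27 (*Hmga2*, 0.578 to 2.43) times the level of GFP− cells in G2/M.

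Within the GFP+ cone-like cells the members differed little between cells with many and few cone marker UMIs. Between the 690 cells with the most and the 783 with the fewest, ranked after thinning (median depths 3881.5 and 4582 UMIs), *H3f3b* stood at 5551 and 4987 CPM (ratio 1.11, 1.09 to 1.14), *H1f0* at 894 and 822 CPM (1.09, 1.03 to 1.15) and *Hmga1* at 110 and 128 CPM (0.862, 0.745 to 0.996), beside 1.06 for the median gene. The 79 cone-like cells with 5 or more UMIs of a stress gene list differed more from the 2060 with 0. They had 463 against 921 CPM of *Hmgb1* (0.502, 0.428 to 0.586), 738 against 1116 CPM of *Hmgn2* (0.661) and 1318 against 800 CPM of *H2afz* (1.65). *Hmga1* (0.614) and *Hmgb3* (0.748) were also lower, and *H1f0* (1.36) and *H3f3b* (1.215) higher, beside 1.05 for the median gene. The intervals of the other members held 1. Cells with 3 or more UMIs of *Fabp7*, a fatty acid binding protein gene of progenitors and young neurons, had 143 CPM of *Hmga1* against 98.1 CPM in cells with 0 (1.46, 1.26 to 1.68) and 1.22 times the *Hmgb2* level (1.11 to 1.34). *H2afx* (0.728, 0.578 to 0.911), *Hmgb3* (0.803), *H2afz* (0.848) and *H3f3b* (0.884) were lower there, beside 0.938 for the median gene. With and without *Pcp4* UMIs, a calmodulin-binding protein gene, the intervals of 8 members held 1.

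RGC-like cells under 3500 genes were split by neurofilament genes, which rise as these neurons grow axons. In the 188 cells with 3 or more neurofilament UMIs, against the 75 with 0, *Hmga1* stood at 45.1 and 131 CPM (0.344, 0.256 to 0.465), *H1f0* at 405 and 641 CPM (0.631, 0.562 to 0.710) and *Hmgn2* at 331 and 504 CPM (0.656, 0.576 to 0.748). *Hmgb1* was slightly lower (0.851, 0.783 to 0.926), the other 6 members had intervals that held 1, and the median gene stood at 0.948. Between RGC-like and the 49 non-cycling neurogenic cells, *Hmga1* stood at 0.151, *Hmgn2* at 0.455, *H2afz* at 0.564, *H1f0* at 0.576, *Hmgb2* at 0.639 and *Hmgb1* at 0.808 times the neurogenic level. The rest did not share this fall. *Hmgb3* was at 539 and 595 CPM, *H3f3b* at 3555 and 3595 CPM and *H2afx* at 83.2 and 67.0 CPM in RGC-like and neurogenic cells. *Hmga2* was sparse in both, at 3.55 and 5.59 CPM. The median gene is not given here.

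Neurogenic RPC-like cells were compared with multipotent cells within the same phase, here without the median of all genes beside the ratios. In G2/M, *Hmga1* was 2.31 times (2.16 to 2.48), *Hmgb1* 1.58 times, *H3f3b* 1.58 times, *Hmgn2* 1.56 times and *H1f0* 1.51 times the multipotent level, and *Hmga2* 0.315 times (0.233 to 0.418). In S these ratios were nearer to 1, at 1.15, 1.16, 1.20, 1.01 and 1.29, and 0.728 for *Hmga2*. The 2 *Hmga* genes therefore moved in opposite directions from multipotent to neurogenic cells in both phases.

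The genes with the most similar profile over the 8 groups, among 4664 genes and by Pearson correlation of log2 CPM, were for *H2afx* *Incenp* (0.996), *Aurkb* and *Neil3*, the first a chromosomal passenger protein gene and the second its kinase. For *Hmgb2* they were *Hist1h2ap* (0.989), *Smc4* and *Nde1*, and for *H2afz* *Lsm2* (0.994), *2810417H13Rik* and *Pa2g4*. *Hmga2* was followed by *Igfbp4* (0.972), *Nes* and *Kcnk1*, *Nes* being the progenitor intermediate filament gene nestin. *Hmga1* was nearest to *Tgif2* (0.954), *Hmgn2* to *Naa40* (0.975), *Hmgb1* to *Srsf7* (0.979), *Hmgb3* to *Rcc2* (0.977), *H3f3b* to *Fam107b* (0.961) and *H1f0* to *Ythdc1* (0.886). With 8 groups that share libraries, these values only describe likeness.

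Among other genes of the same kinds, the remaining histone variants moved in part with the members. Of 7 other variant genes, 3 were at least 2-fold lower in GFP+ than in GFP− cells, where 9.09% of all genes were: *H2afy* (255 against 533 CPM), the macroH2A gene, *Cenpa* (27.4 against 193 CPM), the centromeric H3 gene, and *H1fx* (335 against 928 CPM), another linker histone gene. *Cenpa* and *H1fx* were also the 2 at least 2-fold higher in G2/M than in S (3.44% of all genes), at 7.58 times (6.81 to 8.46) and 2.16 times (2.09 to 2.23). *H2afv*, the second H2A.Z gene, stood at 939 CPM in GFP+ cone-like and 443 CPM in RGC-like cells, while *H2afy2* stood at 137 and 362 CPM and *H2afj* at 103 and 213 CPM. Of 10 other HMG genes, 9 had 20 or more UMIs and 5 could be compared between cone-like and RGC-like cells, of which *Hmgn3* (248 and 112 CPM) and *Hmgn5* (84.3 and 25.2 CPM) were at least 2-fold higher in cone-like cells and 0 were lower, where 20.3% and 9.41% of all genes were. *Cenpa* between the gates and *Hmgn5* here reached 50 CPM only in the higher group, so neither could be called the other way.

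Of 24 histone chaperone and remodeller genes, 19 could be compared between GFP+ cone-like and cycling multipotent cells, where 25.7% of all genes were at least 2-fold higher and 11.8% lower. *Ubn2*, a subunit gene of the HIRA complex that deposits H3.3, was at least 2-fold higher (136 against 46.6 CPM), and 5 were lower: *Dek* (135 against 853 CPM), *Npm1* (805 against 1745 CPM), *Asf1b* (2.19 against 51.1 CPM), *Chaf1a* (4.56 against 69.5 CPM), a subunit gene of the replication-coupled assembly factor, and *Mis18a* (8.94 against 72.4 CPM), which serves centromeric H3 loading. *Asf1b*, *Chaf1a* and *Mis18a* reached 50 CPM only in multipotent cells and so could only be called lower. *Ubn2* reached it only in cone-like cells and could only be called higher. *Nap1l1*, a chaperone gene for H2A and H2B, stood at 1470 CPM in GFP+ cone-like, 297 CPM in RGC-like and 748 CPM in multipotent cells. *Daxx*, an H3.3 chaperone gene, stood at 61.2 CPM in GFP+ cone-like and 23.9 CPM in RGC-like cells, with a per-cell ratio of 1.01. *Nap1l1* and *Daxx* were the 2 at least 2-fold higher in cone-like than in RGC-like cells among 15 compared, and 0 were lower. Of all genes 20.3% and 9.41% were, so the higher genes were not above that share. Of 5 genes that act on let-7 or on its target transcripts, among which *Hmga2* is known, 3 could be compared, and 1 was at least 2-fold lower in RGC-like than in multipotent cells, *Igf2bp2* (35.2 against 82.3 CPM), where 13.2% of all genes were. *Lin28b*, too low to be compared, went the other way, at 6.77 CPM in RGC-like and 2.54 CPM in multipotent cells (2.67, 1.48 to 4.70). *Lin28a* had 16 UMIs in GFP+ cone-like and 1 in multipotent cells.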

How the data were processed

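Droplet 3′ RNA libraries of sorted GFP+ and GFP− cells, 1 per gate, were analysed from the UMI count matrices that the authors deposited, made with Cell Ranger 2.1.1 per the labels on its mm10 reference (GRCm38). The deposited counts are raw UMIs per gene and cell, and genes with 1 of 58 repeated symbols were kept apart and left out of the profile comparison. A cell was kept with more than 250 but fewer than 3500 genes and less than 0.25 of its UMIs mitochondrial. Doublets called by Scrublet (scanpy 1.11.5, expected rate 0.03; 3 GFP+ and 55 GFP− cells) were left in, and the GFP+ call rate of 0.0805% is too low to count as working.

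UMIs were summed per group and given as CPM with exact Poisson intervals, ratios with conditional binomial intervals and shares with Clopper-Pearson intervals, all at 95% and for counting error only. A gene was compared at 50 CPM or more in either group and called at 2-fold. A gene that reached 50 CPM in only 1 of the groups could therefore only be called higher in that group. Per-cell values came from cells thinned to 3200 UMIs, which left out 579 GFP+ and 28 GFP− cells. A pseudocount of 0.5 UMIs was used on the log scale and a floor of 3 counts for zeros.

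On simulated data for the gate comparison (15236 genes, 200 changed), 95.6% of intervals held the true ratio. The simulated sums were Poisson draws, as the intervals assume. This checks the calculation only, and not coverage in the real counts, whose spread between cells can be wider. Python 3.11.15, numpy 2.4.6, pandas 2.3.3, scipy 1.17.1, matplotlib 3.10.9, R 4.3.3 and edgeR 4.0.16 (TMM factors only) were used.

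Named genes were the 10 members, genes of the lists of other HMG proteins, other histone variants, chaperones and let-7 regulators that had 20 or more UMIs and differed 2-fold, 3 genes with the most similar profile per member (log2 of CPM plus 10, genes that set the groups left out) and 5 progenitor genes as a gauge of free RNA. The members and lists were chosen with earlier results of these data known. The alternatives were other limits on genes, mitochondrial fraction, phase markers, class markers and fold, removal of doublets, thinning, 3 other scalings and, chosen after seeing the data, S cells with fewer G2/M markers, cone-like cells from the GFP− library and a split of AC/HC-like cells. Gene positions are from GENCODE for GRCm38. *H2afx* had no entry in the promoter table.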

Additional observations from a re-analysis of the deposited data

Results flagged for a closer look

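For 2 members the log2 ratios of postmitotic groups to the same cycling multipotent cells had opposite signs. The differences were not tested because each gate had 1 library. The log2 ratio of *H1f0* was 0.34 in GFP+ cone-like and -0.54 in RGC-like cells, a difference of 0.87, and -0.58 in AC/HC-like cells, a difference of 0.92. The log2 ratio of *Hmga1* was -1.38 in GFP+ cone-like and 0.26 in AC/HC-like cells, a difference of -1.64, and -2.05 in RGC-like cells, a difference of -2.31 from the AC/HC-like cells. The positive values lay near the median of all genes, which was 0.32 in GFP+ cone-like and 0.19 in AC/HC-like cells. *H1f0* in cone-like cells turned negative under 2 other scalings and *Hmga1* in AC/HC-like cells under 1, as given with the other settings.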

How the results depend on the processing

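No paired analysis was possible because each gate had 1 library. Of 740 alternative values for the members, 11 reversed a difference whose interval did not hold 1. The other 729 kept the sign or belonged to a difference whose interval held 1. This count is of signs only, and many values of the same sign differed in size. It includes 70 values with doublets left out, a setting that removed only 2 kept GFP+ cells and so could hardly change them. The sign of *Hmgb3* and *Hmga2* in AC/HC-like over multipotent cells, whose intervals held 1, was not read. Counted in UMIs per cell, the log2 ratio of GFP+ over GFP− was -0.78 for *H1f0* and -0.31 for *H3f3b*, that of cone-like over multipotent cells -0.85 and -0.0792, that of *Hmga1* in AC/HC-like over multipotent cells -0.20, and those of cone-like over RGC-like cells -0.58 for *Hmgb2*, -0.67 for *Hmga1*, -0.47 for *H1f0* and -0.75 for *H3f3b*. After TMM scaling *H1f0* in cone-like over multipotent cells was -0.0356, and with cone-like cells of the GFP− library *H2afz* over RGC-like cells was 0.14. Of 162 alternative counts of members, 14 moved by over 1.5 times. Between cone-like and multipotent cells, the count of higher members was 0 with TMM, per cell and with GFP− cone-like cells. Between cone-like and RGC-like cells, the count of lower members was 1 after thinning, with TMM and at 1.5-fold, and 4 per cell, and that of higher members 3 with no upper limit on genes, 0 per cell and 5 at 1.5-fold. Between non-cycling and cycling GFP− cells 8 members were lower with no upper limit on genes and at 1.5-fold, and at 1.5-fold 1 member each was higher in GFP+ over GFP− and in AC/HC-like over multipotent cells. The shares of all genes called at these other settings are not given beside the counts. The median of all genes shifted by up to -0.37 with TMM and -1.34 per cell on the log2 scale. With 1 library per gate, the spread between animals or sorts is not known.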

Other observations

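The 47 cycling GFP+ cells had 1739 CPM of *Hmgb2*, 2671 CPM of *H2afz* and 328 CPM of *H2afx*. In the 26 of them with 3 or more cone marker UMIs, these stood at 545, 1226 and 59.6 CPM, and *H3f3b* at 4298 CPM. These 26 cells held 117487 UMIs in all, a median of 3714.5, so the *H2afx* value rests on few UMIs. The 47 cells were 28 in S and 19 in G2/M, and the mix of phases among the 26 is not given. Between single cells, *Hmgb2* and *H2afz* had a rank correlation of 0.504 over 1638 multipotent cells of any phase and -0.00601 over 2118 GFP+ cone-like cells, each at 3200 UMIs and within 1 library, and *H1f0* and *H3f3b* had 0.396 and 0.0838. The cone-like cells were non-cycling by definition and held few UMIs of *Hmgb2* and *H2afz*. A loss of co-expression can therefore not be read from these values.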
